A study of Mus musculus with 4 samples.

Results

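Cadherins and protocadherins are cell-surface proteins that hold neighbouring cells together, and the genes described here are all members of the family that the count tables list under a Cdh or Pcdh symbol with at least 50 molecules in all libraries together. A symbol was taken when it was Cdh followed by digits alone or began with Pcdh, and the hair-cell and photoreceptor genes Cdh23 and Pcdh15 were left out by name. Of the 31053 genes in the tables, 92 carried such a symbol (91 distinct symbols, as Pcdha11 stands for 2 genes). Without the 2 left out by name there were 90, of which 30 reached the minimum. These 30 comprised 19 cadherins and 11 protocadherins. By family they were 4 type I classical cadherins (Cdh1, Cdh2, Cdh3 and Cdh4), 13 type II classical cadherins (Cdh5 to Cdh12, Cdh18, Cdh19, Cdh20, Cdh22 and Cdh24), the lipid-anchored Cdh13, the kidney-type Cdh16, 4 delta-1 protocadherins (Pcdh1, Pcdh7, Pcdh9 and Pcdh11x), 5 delta-2 protocadherins (Pcdh8, Pcdh10, Pcdh17, Pcdh18 and Pcdh19), Pcdh20, and Pcdha1 of the clustered genes.

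Cadherins bind in the presence of calcium, mostly to a cadherin of the same or a closely related kind on the facing cell. Classical cadherins join the actin skeleton through catenins and build adherens junctions, type II cadherins bind within subgroups of related molecules, and delta-protocadherins have a different cell-internal part and bind more weakly. In the retina classical cadherins hold glia and photoreceptors together at the outer limiting membrane, and in the mouse several type II cadherins take part in the choice of layers and partners by neurons.

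Nuclear RNA of mouse retina was counted with the 10x droplet method, which tags RNA by nucleus (a barcode) and by molecule (a unique molecular identifier, UMI). The 5-month group and the 2.5-month group held 2 libraries each, every one from the left eye of a separately numbered donor. The labels name wild type as the genotype at 2.5 months and state none at 5 months, and no treatment was named for either. The series title speaks of human retina, whereas the files hold mouse genes.

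The libraries held 7537 and 9963 barcodes at 5 months and 7404 and 7422 barcodes at 2.5 months, with 28042269 and 36320257 UMIs at 5 months and 19608067 and 28723257 UMIs at 2.5 months. Barcodes shared by a pair of libraries made up at most 0.337% of barcodes. After filters 30839 nuclei remained, of which 28109 lay in 13 classes named from marker genes, each name standing for nuclei like that type. For all 13 classes the summed level of the class's own markers was higher in that class than in any other. The doublet caller marked 672 and 784 nuclei in the 5-month libraries but 3 and 1 nuclei in the 2.5-month libraries. It had not worked in the younger group, and doublets were thus taken out of the older group alone. The clusters were built without any Cdh or Pcdh gene, and therefore no member had a part in defining a class, subtype or sub-cluster.

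The members together made up 795029 UMIs, or 0.705% of all UMIs. The span of the 30 genes on the genome ran from 4.54 kb for Pcdh8 to 1140 kb for Cdh12, and 18 of them were longer than 100 kb. Of the 57 clustered Pcdha, Pcdhb and Pcdhg genes in the tables, 56 were listed at 0 in all libraries, and all 56 overlap other annotated genes on the same strand. The long gene models Gm42416, Gm37013 and Gm37388, which overlap each of the 56 on the same strand, were also listed at 0, so that a 0 here says nothing about expression of the clustered genes. Pcdha1, the only clustered gene above 0, had 239 UMIs and Cdh5 had 276 UMIs, the members nearest to the minimum. Just below it, Cdh26 had 45 UMIs, Cdh17 had 31 UMIs and Pcdh12 had 11 UMIs, and Cdh15 was listed at 0.

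Promoter letters are shown for 4 members whose levels, described in the following paragraphs, were high in different cell groups. Among the tested classes Cdh20 was highest in Müller glia (831 CPM), though an amacrine sub-cluster reached 1387 CPM. Cdh8 was higher in OFF than in ON cone bipolar cells, though an ON sub-cluster was also high in it. Cdh6 was higher in starburst than in other amacrine cells, and Pcdh17 was high in some sub-clusters of bipolar and amacrine cells. Each run is the 250 bases before the gene start in RefSeq on build GRCm38.p6, written 5′ to 3′ on the gene's strand, and the capitals mark matches to any of 3 motifs searched on both strands.
Cdh20, chr1:104768270-104768519, plus strand: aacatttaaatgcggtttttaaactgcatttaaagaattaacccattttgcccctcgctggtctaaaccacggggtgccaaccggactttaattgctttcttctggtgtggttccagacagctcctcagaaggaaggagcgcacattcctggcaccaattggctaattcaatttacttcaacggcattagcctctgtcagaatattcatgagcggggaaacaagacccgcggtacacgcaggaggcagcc
Cdh8, chr8:99416472-99416721, minus strand: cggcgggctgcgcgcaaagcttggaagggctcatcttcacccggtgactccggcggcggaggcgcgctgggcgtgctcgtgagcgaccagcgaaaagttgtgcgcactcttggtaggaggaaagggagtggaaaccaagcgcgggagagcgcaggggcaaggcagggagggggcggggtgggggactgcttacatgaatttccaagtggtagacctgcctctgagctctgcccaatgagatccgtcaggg
Cdh6, chr15:13173676-13173925, minus strand: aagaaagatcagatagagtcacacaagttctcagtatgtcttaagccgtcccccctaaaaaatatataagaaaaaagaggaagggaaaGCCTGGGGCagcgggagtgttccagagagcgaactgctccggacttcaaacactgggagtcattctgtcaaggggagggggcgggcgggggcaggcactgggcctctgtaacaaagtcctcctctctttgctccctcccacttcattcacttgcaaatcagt
Pcdh17, chr14:84443313-84443562, plus strand: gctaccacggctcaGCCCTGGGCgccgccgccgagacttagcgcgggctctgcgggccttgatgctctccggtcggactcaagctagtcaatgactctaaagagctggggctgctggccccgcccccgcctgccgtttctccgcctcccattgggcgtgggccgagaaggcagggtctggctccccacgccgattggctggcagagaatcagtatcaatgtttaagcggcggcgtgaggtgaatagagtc
The motifs were TAATCC, the core bound by CRX and OTX factors, CAGCTG, an E-box, and GCCNNNGGC, the AP-2 motif, and no motif contains another. None of the 3 stood in the Cdh20 and Cdh8 runs. The search covered 32851 RefSeq promoters, which were not all promoters, and 18 members had a promoter among them. The other members were not searched. TAATCC was present upstream of Cdh7 alone, in only 1 of its promoters, against 6.252% of the promoters searched. CAGCTG stood upstream of Cdh9 and Cdh12, 135 and 143 bases before the start, against 13% of these promoters. GCCNNNGGC stood upstream of Cdh6, Cdh18, Cdh22 and Pcdh17, 162 bases before the start in Cdh6 and 236 in Pcdh17, against 13.73% of these promoters. Members are counted as genes and the shares as promoters, and a gene can have several, so the counts and shares are not directly comparable. A match is a run of letters and was not tested as a binding site.

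Among the 10 classes that could be tested, most of them neurons, the class with the highest level was a class of neurons for 22 of the 30 members. Untested classes are left out of this count. Cdh13, for example, is counted under ganglion cells though astrocytes and striated muscle had higher levels. Counts were summed over the nuclei of a class in each library and are given as CPM. This scales counts to the same depth in every class and library. Levels are compared between groups of nuclei for 1 gene at a time. An exception is made by limits of 200, 500 and 1000 CPM, set below for all members alike. They take no account of differences between genes, such as span. The 10 classes with at least 20 nuclei in every library were each compared with the mean of the other 9 by edgeR's quasi-likelihood test with library as a block, in which 14685 genes and 28 of the 30 members passed the filter on low counts, the exceptions being Pcdh20 and Pcdha1. Called means a Benjamini-Hochberg adjusted p under 0.05, and the log2 fold change is against the other classes' mean on the log scale. The highest mean level lay in ganglion cells for 8 members, in amacrine cells for 7, in bipolar cells for 4, in fibroblasts for 3, in Müller glia and melanocytes for 2 each, and in rods, cones, horizontal cells and pigment epithelium for 1 each. The class with the highest level was the same in all 4 libraries for 24 of 30 members, and for 16 of them every library of the highest class lay above every library of the next. Such counts, and those of the highest class, were not made over all genes. They therefore do not set the members apart from other genes.

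Retinal ganglion cells, the output neurons, had 21 members called higher and 3 called lower, where 35.7% of all genes tested were higher and 27.3% lower. Amacrine cells, the inhibitory interneurons, also had 21 higher and 4 lower, against 33.4% and 24.0% of all genes. In bipolar cells, which carry photoreceptor signals inward, 18 members were higher and 7 lower, against 26.9% and 20.8%. Horizontal cells had 6 higher and 13 lower, against 17.7% and 18.3%. In rods 1 member was higher and 23 were lower, against 31.3% and 31.9%, and in cones 6 were higher and 17 lower, against 32.8% and 27.4%. Müller glia had 12 higher and 11 lower, against 29.6% and 24.1%. Of the classes outside the neural retina, pigment epithelium had 5 higher and 6 lower against 17.7% and 14.6%, melanocytes had 4 higher and 15 lower against 17.5% and 16.7%, and fibroblasts had 11 higher and 11 lower against 27.9% and 23.1%. The classes differ in UMIs, and with all class sums thinned to 138040 UMIs rods had 0 members higher and 11 lower and ganglion cells 0 lower.

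**Figure D1:**
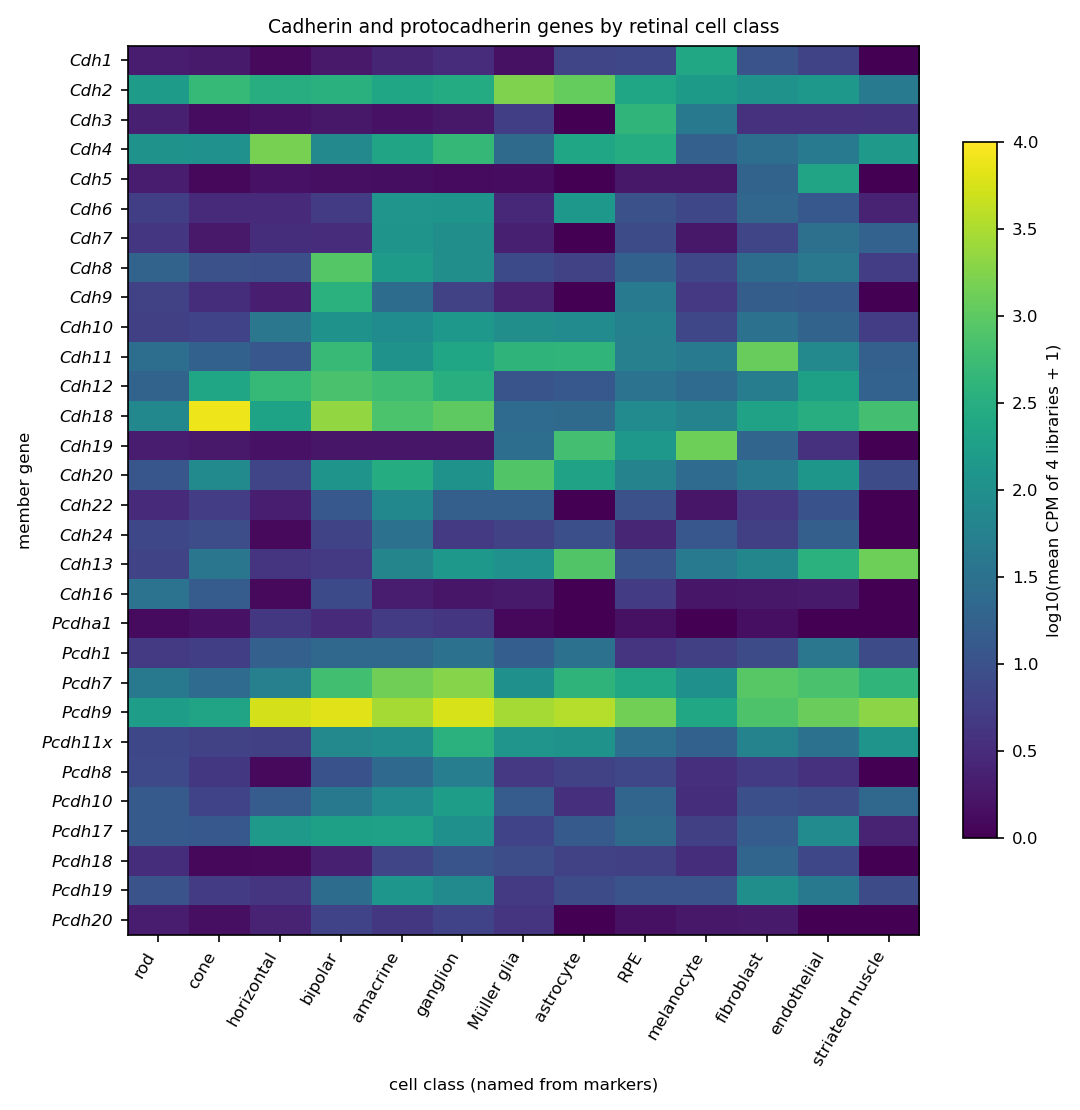
Levels of the 30 members (down the page) in the 13 named classes (across), as log10 of the mean CPM of 4 libraries plus 1, shown by colour; RPE is pigment epithelium, and astrocytes, endothelium and striated muscle were not tested. Among the tested classes Cdh18 is highest in cones, Cdh4 in horizontal cells and Cdh3 in pigment epithelium.

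Among the type I cadherins, Cdh2, the N-cadherin of neural epithelia and of the outer limiting membrane, was highest in Müller glia. Its level there was 1757 and 1425 CPM in the 5-month libraries and 1729 and 1802 CPM in the 2.5-month libraries, against 530 and 384 CPM at 5 months and 471 and 535 CPM at 2.5 months in cones, the next class. The Müller and cone libraries did not overlap, and within Müller glia the second 5-month library was the lowest. The log2 fold change of Cdh2 in Müller glia was 2.92 (SE 0.07, adjusted p = 1.64e-35), and in cones it was 0.78 (SE 0.09, adjusted p = 1.73e-10). Fibroblasts had the lowest Cdh2 level, 110 ± 39.4 CPM (SD, n = 4 libraries, as for each value after ±).

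Cdh4, or R-cadherin, first described in the chick retina, was concentrated in horizontal cells, the interneurons that contact photoreceptor terminals. Horizontal nuclei had 1453 and 1205 CPM at 5 months and 1664 and 1766 CPM at 2.5 months, although the 2.5-month values rest on 29 and 40 nuclei. Ganglion cells came next with 513 and 438 CPM at 5 months and 359 and 508 CPM at 2.5 months, below every horizontal library. The log2 fold change in horizontal cells was 4.47 (SE 0.08, adjusted p = 5.05e-41). Bipolar cells had 74.2 ± 12.8 CPM and melanocytes, the lowest class, 15.9 CPM.

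Cdh1 and Cdh3 lie side by side on chromosome 8 (Cdh3 at 106510891 to 106557297 and Cdh1 at 106603351 to 106670246, build GRCm38, plus strand) and were each nearly confined to a different pigmented class among the 10 tested. Cdh3, or P-cadherin, whose loss in humans causes hair loss with macular dystrophy, had 453 and 307 CPM in pigment epithelium at 5 months and 581 and 312 CPM at 2.5 months. All 4 libraries lay above those of melanocytes, with 58 and 36.4 CPM at 5 months and 15.8 and 50.5 CPM at 2.5 months. Pigment epithelium gave 88.9% of the CPM of Cdh3 summed over the 10 classes, and its log2 fold change there was 7.97 (SE 0.18, adjusted p = 9.06e-38). Cdh1, the E-cadherin of epithelia and of skin melanocytes, had 217 and 252 CPM in melanocytes at 5 months and 247 and 237 CPM at 2.5 months, and at most 21.5 CPM in any library of fibroblasts, the next class. Melanocytes gave 91.1% of its summed CPM, with a log2 fold change of 7.07 (SE 0.24, adjusted p = 7.68e-30).

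Several type II cadherins were also concentrated in 1 class. Cdh19, known from Schwann cells and the neural crest lineage, had 1355 and 1180 CPM in melanocytes at 5 months and 1355 and 1283 CPM at 2.5 months. Pigment epithelium had 177 and 100.1 CPM at 5 months and 98.3 and 161 CPM at 2.5 months, so that the 2 classes did not overlap, and the log2 fold change in melanocytes was 8.51 (SE 0.12, adjusted p = 4.21e-46). Its genomic neighbours Cdh20 and Cdh7, also on chromosome 1, were highest in other classes. Cdh20 had 835 and 629 CPM in Müller glia at 5 months and 945 and 915 CPM at 2.5 months. Amacrine cells, the next class, had 339 and 290 CPM at 5 months and 278 and 274 CPM at 2.5 months and did not overlap with Müller glia, where the log2 fold change was 4.23 (SE 0.09, adjusted p = 1.68e-39). Cdh7 was highest in amacrine cells at 116 ± 12.1 CPM and next in ganglion cells at 95.1 ± 10.6 CPM, whose libraries overlapped, and its log2 fold changes were 5.01 (SE 0.11, adjusted p = 3.52e-37) and 4.84 (SE 0.12, adjusted p = 2.80e-35).

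Cdh18 was highest in cones. Cones had 7275 and 6594 CPM at 5 months and 8104 and 9363 CPM at 2.5 months, and bipolar cells had 2179 and 2070 CPM at 5 months and 2363 and 2395 CPM at 2.5 months. All cone libraries lay above all bipolar libraries, and rods, the other photoreceptor class, had 73.2 ± 45.8 CPM. The log2 fold change in cones was 5.17 (SE 0.12, adjusted p = 1.13e-36) and in bipolar cells 3.30 (SE 0.13, adjusted p = 6.93e-27). Cdh16, the Ksp-cadherin of kidney tubules, was the only member called higher in rods, with 31.8 and 53.6 CPM at 5 months and 27.6 and 16.4 CPM at 2.5 months. Cones had 15.3 and 22.2 CPM at 5 months and 8.13 and 8.52 CPM at 2.5 months, which overlapped with rods. The log2 fold change was 4.05 (SE 0.21, adjusted p = 1.27e-22) in rods and 2.89 (SE 0.27, adjusted p = 3.18e-13) in cones, and the call in rods was lost when class sums were thinned to equal UMIs.

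**Figure D2:**
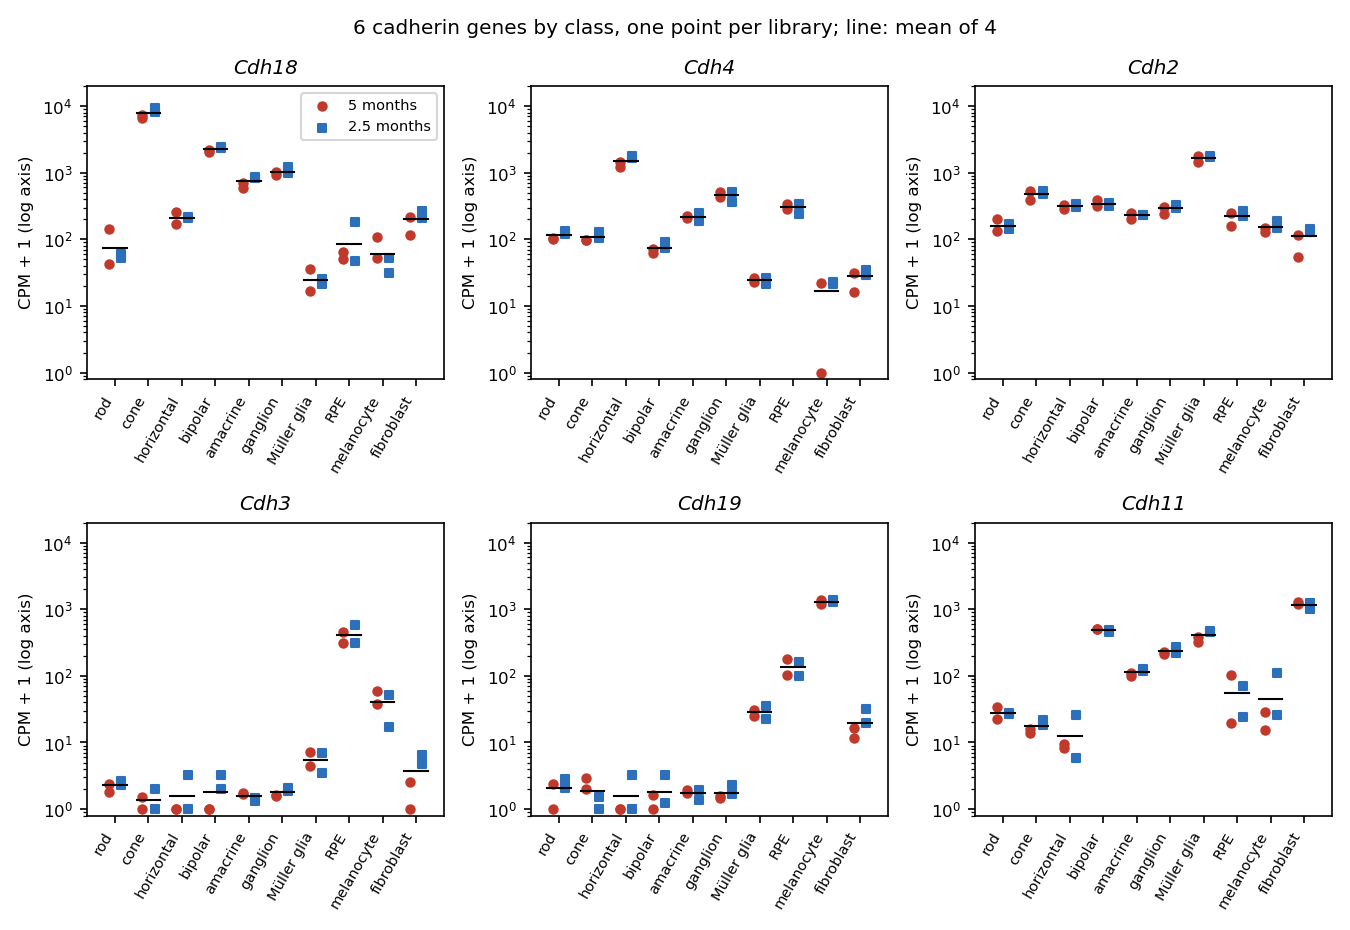
Level in CPM plus 1 (log axis) of Cdh18, Cdh4, Cdh2, Cdh3, Cdh19 and Cdh11 in each of the 10 tested classes; red circles are the 5-month and blue squares the 2.5-month libraries, and a line marks the mean of 4. For each of the 6 genes every library of the highest class lies above every library of the other classes.

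Cdh8 and Cdh9, which in mice direct the axons of different bipolar types to different layers, were the leading bipolar members. Cdh8 had 890 and 765 CPM in bipolar cells at 5 months and 911 and 984 CPM at 2.5 months, against 142 and 121 CPM at 5 months and 179 and 184 CPM at 2.5 months in amacrine cells. Cdh9 had 411 and 358 CPM in bipolar cells at 5 months and 343 and 321 CPM at 2.5 months, against 34.5 and 46.6 CPM at 5 months and 40.6 and 55.9 CPM at 2.5 months in pigment epithelium. Neither gene overlapped with its next class, and the log2 fold changes in bipolar cells were 5.60 for Cdh8 (SE 0.09, adjusted p = 6.92e-44) and 6.06 for Cdh9 (SE 0.11, adjusted p = 1.79e-41). Cdh12, a brain cadherin, was spread over bipolar cells (718 ± 58.2 CPM), amacrine cells (576 ± 54.2 CPM) and horizontal cells (475 ± 39.1 CPM), with overlapping bipolar and amacrine libraries.

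Cdh11, the cadherin of mesenchyme and bone-forming cells, was highest in fibroblasts, with 1276 and 1185 CPM at 5 months and 1013 and 1220 CPM at 2.5 months. Bipolar cells followed at 487 ± 23.2 CPM and Müller glia at 402 ± 68 CPM, and neither overlapped with fibroblasts. Its log2 fold change was 3.75 in fibroblasts (SE 0.11, adjusted p = 7.28e-33) and 2.34 in Müller glia (SE 0.12, adjusted p = 4.99e-23). Cdh5, the VE-cadherin of blood vessels, was called in fibroblasts at 17.6 ± 2.74 CPM, but the small untested endothelial class of 156 nuclei had 196 and 249 CPM at 5 months and 235 and 171 CPM at 2.5 months. Cdh13, which has a lipid anchor in place of a cell-internal part, was at 134 ± 16.8 CPM in ganglion cells and 104 ± 11.3 CPM in Müller glia. In the untested astrocytes (61 nuclei) it reached 806 ± 202 CPM and in striated muscle (74 nuclei) 1304 ± 172 CPM, and Cdh19 reached 630 ± 165 CPM in astrocytes.

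Of the remaining type II members, Cdh6 was at 122 ± 23.9 CPM in amacrine cells and 115 ± 29.9 CPM in ganglion cells, which did not differ beyond their spread. Cdh22 stood at 73.1 ± 5.38 CPM in amacrine cells and 15.4 ± 2.11 CPM in ganglion cells, without overlap. Cdh10 reached 133 ± 21.9 CPM in ganglion cells and 108 ± 15.6 CPM in bipolar cells, and Cdh24 reached 30.9 ± 7.99 CPM in amacrine cells.

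All 4 delta-1 protocadherins were called lower in rods and in cones. Pcdh9 was highest in bipolar cells, with 6640 and 5911 CPM at 5 months and 6642 and 7402 CPM at 2.5 months. Ganglion cells had 5309 and 4540 CPM at 5 months and 6303 and 6956 CPM at 2.5 months, overlapping with bipolar cells, and horizontal cells had 5540 ± 853 CPM. Müller glia stood at 2934 ± 445 CPM, while cones and rods had 215 ± 72.1 and 174 ± 88.2 CPM. Pcdh7 was at 1845 ± 291 CPM in ganglion cells, 1364 ± 193 CPM in amacrine cells and 907 ± 261 CPM in fibroblasts, and it was lowest in cones at 23.8 ± 11.2 CPM. The X-linked Pcdh11x was higher in ganglion cells, with 338 and 283 CPM at 5 months and 322 and 474 CPM at 2.5 months, than in Müller glia at 121 ± 18.9 CPM, and its log2 fold change in ganglion cells was 4.05 (SE 0.12, adjusted p = 2.93e-33). Pcdh1 was at 30.3 ± 3.25 CPM in ganglion cells and 21.6 ± 9.17 CPM in bipolar cells, with overlapping libraries.

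The delta-2 protocadherins include several that bind the actin-regulating WAVE complex. Ganglion cells had the highest level of Pcdh8, an activity-regulated gene of synapses, at 50.6 ± 7.21 CPM, and of Pcdh10 at 167 ± 14.4 CPM. The log2 fold change of Pcdh8 there was 3.78 (SE 0.15, adjusted p = 4.43e-27). Pcdh17 stood at 191 ± 25.4 CPM in amacrine cells, 185 ± 19.2 CPM in bipolar cells and 142 ± 22.3 CPM in horizontal cells, where the first 2 overlapped. Pcdh19, mutated in a human epilepsy, was at 126 ± 18.7 CPM in amacrine cells and 95.6 ± 15.5 CPM in fibroblasts, and both were called, with log2 fold changes of 3.33 (SE 0.10, adjusted p = 2.81e-32) and 2.68 (SE 0.14, adjusted p = 8.03e-22). Pcdh18 was highest in fibroblasts at 19.3 ± 3.23 CPM. The members outside the class test were low throughout, with Pcdh20 at most at 5.49 ± 1.76 CPM in ganglion cells and Pcdha1 at most at 4.15 ± 1.35 CPM in amacrine cells.

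Rod bipolar cells, which serve dim light, had lower levels than cone bipolar cells in most members tested. Of 18 members tested, 2 were called higher and 15 lower in rod bipolar than in cone bipolar cells, where 13.9% of all genes were higher and 17.6% lower. The filter on low counts keeps a gene that is high in only 1 group, here and in the contrasts below. Such shares therefore do not describe all members. Pcdh9 had 114 and 110 CPM at 5 months and 240 and 80.6 CPM at 2.5 months in rod bipolar cells, against 8952 and 7613 CPM at 5 months and 9347 and 10328 CPM at 2.5 months in cone bipolar cells. The groups did not overlap, with a log2 fold change of -6.10 (SE 0.12, adjusted p = 1.71e-54). Cdh8 had 40 UMIs in all rod bipolar nuclei together and 7983 UMIs in cone bipolar nuclei, with levels of 22.1 ± 18.6 and 1209 ± 166 CPM and a log2 fold change of -6.12 (SE 0.17, adjusted p = 1.94e-44). Cdh9 had 10 UMIs in rod bipolar and 3039 UMIs in cone bipolar nuclei (log2 fold change -6.74, adjusted p = 4.07e-42, SE 0.21), and Pcdh17 had 7 and 1594 UMIs (log2 fold change -6.30, adjusted p = 1.18e-35, SE 0.25). Cdh12 went the other way, with 1117 and 1015 CPM at 5 months and 1314 and 1244 CPM at 2.5 months in rod bipolar cells, against 601 and 520 CPM at 5 months and 506 and 565 CPM at 2.5 months in cone bipolar cells. Every rod bipolar library was higher (log2 fold change 1.16, adjusted p = 4.31e-23, SE 0.07), and Cdh12 was the only member above 500 CPM in rod bipolar cells.

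ON cone bipolar cells, which respond to light onset, and OFF cone bipolar cells, which respond to its end, differed in both directions. Of 17 members tested, 6 were called higher and 8 lower in ON cells, where 9.84% of all genes were higher and 9.19% lower. Pcdh11x had 200.2 and 175 CPM at 5 months and 143 and 232 CPM at 2.5 months in ON cells, against 4.17 and 10.8 CPM at 5 months and 10.5 and 1.53 CPM at 2.5 months in OFF cells (log2 fold change 5.03, adjusted p = 5.11e-18, SE 0.24). Cdh9 had 923 and 874 CPM at 5 months and 826 and 768 CPM at 2.5 months in ON cells, against 121 and 71 CPM at 5 months and 85.7 and 73.5 CPM at 2.5 months in OFF cells (log2 fold change 3.27, adjusted p = 1.10e-23, SE 0.10). Cdh8 had 388 and 323 CPM at 5 months and 600.5 and 600.1 CPM at 2.5 months in ON cells, against 2137 and 1621 CPM at 5 months and 2086 and 2279 CPM at 2.5 months in OFF cells (log2 fold change -2.13, adjusted p = 7.40e-21, SE 0.08). None of the 3 genes overlapped between ON and OFF cells in any library, and within ON cells both 5-month libraries were lower in Cdh8 than both 2.5-month libraries. The ON sub-cluster led by Grin3a and Sema3d, described below, was high in Cdh8. It held 28 of 227 ON nuclei in each 5-month library, and 63 of 252 and 75 of 360 in the 2.5-month libraries. The part of this mix in the Cdh8 levels of ON cells was not tested. Cdh22 had 1 UMI in ON cells and 95 UMIs in OFF cells, too few in ON cells for a fold. Cdh4, Cdh20, Pcdh10 and Pcdh17 differed less, with log2 fold changes of 1.39, 0.86, -1.34 and -0.84 (SE 0.14, 0.11, 0.19 and 0.09, adjusted p at most 5.69e-07).

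The ON and OFF means hide separate sub-clusters. Bipolar nuclei formed 15 sub-clusters, here called by their leading genes, of which 14 had at least 10 nuclei in each library and were tested against the mean of the others. In this fit, where 15 members and 4206 genes passed the filter on low counts, 90 of 210 member tests were called higher and 41 lower, against 13.3% and 7.57% over all genes and sub-clusters. The filter keeps a gene that is high in only some sub-clusters, so that this share does not describe all members. The median absolute log2 fold change was 2.19 over the members and 0.308 over all genes. In all sub-cluster tests the log2 fold change is against the mean of the others on the log scale. The level given for the others is a plain mean of CPM, so the fold is not the ratio of the levels.

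Cdh8 was concentrated in 4 sub-clusters and Cdh9 in 3 others. The OFF sub-cluster led by Ebf1 and Neto1 had Cdh8 at 6164 and 4939 CPM at 5 months and 5894 and 6494 CPM at 2.5 months, against a mean of 435 CPM in the other sub-clusters (log2 fold change 6.86, adjusted p = 2.84e-78, SE 0.11). The ON sub-cluster led by Grin3a and Sema3d had 2403 CPM, the OFF sub-cluster led by Erbb4 and Kcnh7 had 2290 CPM, and the untested OFF sub-cluster led by Nav3 and Brinp1 had 2350 CPM. The ON sub-cluster led by Palld and Tacr1 had Cdh9 at 1719 and 1810 CPM at 5 months and 2210 and 1794 CPM at 2.5 months (log2 fold change 5.80, adjusted p = 1.40e-60, SE 0.13). Those led by Ptprt and Ptprk and by Kirrel3 and Chn2, both ON, had Cdh9 at 1640 and 1564 CPM. At a limit of 500 CPM, Cdh8 alone was above it in 4 sub-clusters, Cdh9 alone in 3, both in 0 and neither in 8. At a limit of 1000 CPM the same counts were found, and at 200 CPM both genes were above it in 3.

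Cdh11 and Cdh12 also divided the bipolar sub-clusters. Above 500 CPM, Cdh11 alone was found in 8 sub-clusters, Cdh12 alone in 6, both in 1 and neither in 0. The ON sub-cluster led by Pvt1 and Tmem200a had Cdh11 at 1548 and 1623 CPM at 5 months and 1864 and 1888 CPM at 2.5 months, and 4 UMIs of Cdh12 in all. The ON sub-cluster led by Palld and Tacr1 had Cdh12 at 1383 and 1667 CPM at 5 months and 1569 and 1725 CPM at 2.5 months, and 13 UMIs of Cdh11. The OFF sub-cluster led by Fam19a4 and Lama2 had both, at 1126 ± 212 CPM for Cdh11 and 794 ± 183 CPM for Cdh12. The division depends on the limit, since at 200 CPM both genes were above it in 3 sub-clusters, and at 1000 CPM neither was in 7.

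**Figure D3:**
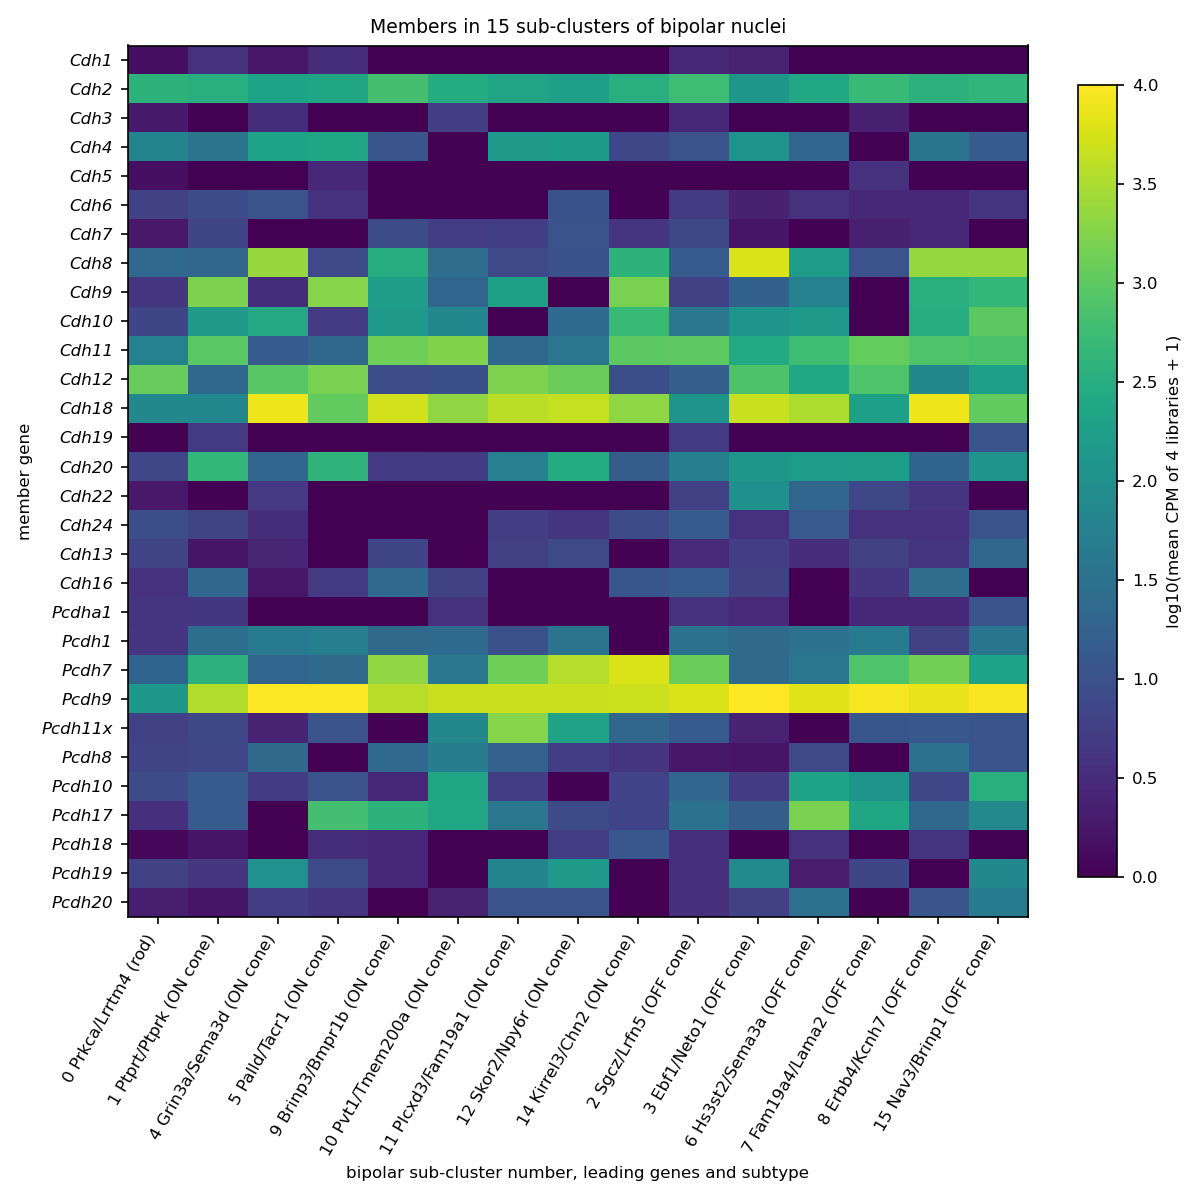
Levels of the members in the 15 bipolar sub-clusters, named by type and leading genes, as log10 of the mean CPM of 4 libraries plus 1; colours end at 4, so that higher values look alike. Cdh8 and Cdh9 are bright in different columns, Cdh11 and Cdh12 alternate, and the rod bipolar column holds Cdh12 as its only member above 500 CPM.

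Protocadherins also varied among the bipolar sub-clusters, Pcdh7 being called higher in 8 and Pcdh17 in 5 of the 14 tested. Pcdh11x had 1759 and 1687 CPM at 5 months and 1607 and 2369 CPM at 2.5 months in the ON sub-cluster led by Plcxd3 and Fam19a1, against a mean of 27.3 CPM in the others (log2 fold change 7.78, adjusted p = 1.45e-56, SE 0.19). Pcdh17 had 1474 and 1608 CPM at 5 months and 1722 and 1528 CPM at 2.5 months in the OFF sub-cluster led by Hs3st2 and Sema3a (log2 fold change 5.80, adjusted p = 1.53e-55, SE 0.15). Pcdh7 had 5021 and 4649 CPM at 5 months and 6281 and 7385 CPM at 2.5 months in the ON sub-cluster led by Kirrel3 and Chn2 (log2 fold change 4.84, adjusted p = 2.02e-66, SE 0.10). All libraries of each sub-cluster lay above the mean of the others in the same library. Cdh18 varied among sub-clusters of the same response type: 7975 ± 877 CPM in the ON sub-cluster led by Grin3a and Sema3d, 7997 ± 644 CPM in the OFF sub-cluster led by Erbb4 and Kcnh7, 71.8 ± 75.3 CPM in the ON sub-cluster led by Ptprt and Ptprk, and 116 ± 50.9 CPM in the OFF sub-cluster led by Sgcz and Lrfn5. Counting the members above 500 CPM in each sub-cluster gave 14 different sets among 15 sub-clusters. Sets of other genes were not counted, so this number does not set the members apart from them. The sub-clusters led by Ebf1 and Neto1 and by Grin3a and Sema3d shared the set of Cdh8, Cdh12, Cdh18 and Pcdh9.

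Cones with mainly short-wave opsin had lower levels of some members than cones with mainly medium-wave opsin. Of 11 tested, 0 were called higher and 4 lower in short-wave cones, where 2.62% of all genes were higher and 2.29% lower. Cdh12 had 49.1 and 21.4 CPM at 5 months and 25.5 and 20.4 CPM at 2.5 months in short-wave cones, against 410 and 267 CPM at 5 months and 316 and 313 CPM at 2.5 months in medium-wave cones. The groups did not overlap, with a log2 fold change of -3.47 (SE 0.13, adjusted p = 1.18e-40). Cdh4 was at 53.1 ± 13.4 CPM in short-wave and 130 ± 13.5 CPM in medium-wave cones (log2 fold change -1.21, adjusted p = 1.22e-11, SE 0.14). The changes of Pcdh9 and Cdh2 were smaller, with log2 fold changes of -0.49 and -0.24 (SE 0.10 and 0.06, adjusted p = 0.00012 and 0.00904) and overlapping libraries. Both were lower in short-wave cones in each of the 4 libraries, while Cdh18 had 8151 ± 1226 CPM in short-wave and 7701 ± 1210 CPM in medium-wave cones and was not called.

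Starburst amacrine cells, which release acetylcholine and are needed for direction selectivity, differed from other amacrine cells in most members tested. Of 23 members tested, 7 were called higher and 14 lower than in the other amacrine cells, where 12.7% of all genes were higher and 17.2% lower. The limit set by the filter is the same as for rod bipolar cells. Cdh6, known in mice from direction-selective circuits, had 805 and 580 CPM at 5 months and 812 and 842 CPM at 2.5 months in starburst cells, against 75.1 and 72.7 CPM at 5 months and 96.9 and 90.9 CPM at 2.5 months in the others (log2 fold change 3.30, adjusted p = 1.48e-36, SE 0.09). Pcdh10 had 375 and 362 CPM at 5 months and 196 and 365 CPM at 2.5 months in starburst cells, against 81.2 and 66.6 CPM at 5 months and 65.3 and 72.6 CPM at 2.5 months (log2 fold change 2.35, adjusted p = 7.40e-26, SE 0.11). The groups did not overlap for either gene, and the first 2.5-month library was the lowest in Pcdh10. Cdh18 was at 2465 ± 381 CPM in starburst and 638 ± 91.2 CPM in other amacrine cells (log2 fold change 2.07, adjusted p = 2.48e-31, SE 0.07). Members common in other amacrine cells were nearly lacking: Cdh20 had 2 UMIs in starburst nuclei and 8011 UMIs in the others, Cdh7 had 1 and 3179 UMIs, Cdh10 had 3 and 2272 UMIs, and Cdh8 had 4 and 4127 UMIs. All 4 were called lower. No fold is given for the 3 genes at 1 to 3 UMIs, and that of Cdh8 was -5.82 on the log2 scale (SE 0.32, adjusted p = 3.95e-23).

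Glycinergic amacrine cells, set against GABAergic ones, had 5 of 25 members tested called higher and 17 lower, where 18.4% of all genes were higher and 16.9% lower. Cdh20 had 62.3 and 44.7 CPM at 5 months and 33 and 34.9 CPM at 2.5 months in glycinergic cells, against 484 and 423 CPM at 5 months and 470.4 and 486 CPM at 2.5 months in GABAergic cells (log2 fold change -3.43, adjusted p = 1.72e-15, SE 0.11). Cdh24 was at 8.29 ± 1.69 CPM in glycinergic and 45.1 ± 9.39 CPM in GABAergic cells (log2 fold change -2.52, adjusted p = 1.71e-11, SE 0.14). Cdh12 had 791 and 665 CPM at 5 months and 764 and 863 CPM at 2.5 months in glycinergic cells, against 469 and 439 CPM at 5 months and 447 and 481 CPM at 2.5 months (log2 fold change 0.72, adjusted p = 3.39e-09, SE 0.06). For none of these 3 genes did the groups overlap. Pcdh8, Cdh7 and Cdh22 were also higher in glycinergic cells, by 0.95, 0.43 and 0.41 on the log2 scale (SE 0.13, 0.08 and 0.07, adjusted p at most 0.000238).

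Taken over the 32 amacrine sub-clusters that could be tested, a larger share of members than of all genes was called, though not in each sub-cluster. In this fit 21 members and 6127 genes passed the filter, and 268 of 672 member tests were called higher and 134 lower, against 12.8% and 6.46% over all genes and sub-clusters. The sub-cluster led by Pcsk6 had 3 members higher, or 14.3% of those tested, against 20.8% of all genes. The median absolute log2 fold change was 1.70 over the members and 0.307 over all genes, with the same limit set by the filter as in bipolar cells. Pcdh9 reached 23590 and 19328 CPM at 5 months and 26875 and 29823 CPM at 2.5 months in the GABAergic sub-cluster led by Glra1, against a mean of 2855 CPM in the others (log2 fold change 4.25, adjusted p = 1.82e-67, SE 0.12). Pcdh7 reached 7682 and 5919 CPM at 5 months and 8389 and 7903 CPM at 2.5 months in the GABAergic sub-cluster led by Maf (log2 fold change 4.62, adjusted p = 1.26e-76, SE 0.11). In both genes the second 5-month library was the lowest, and all libraries lay well above the other sub-clusters' mean.

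**Figure D4:**
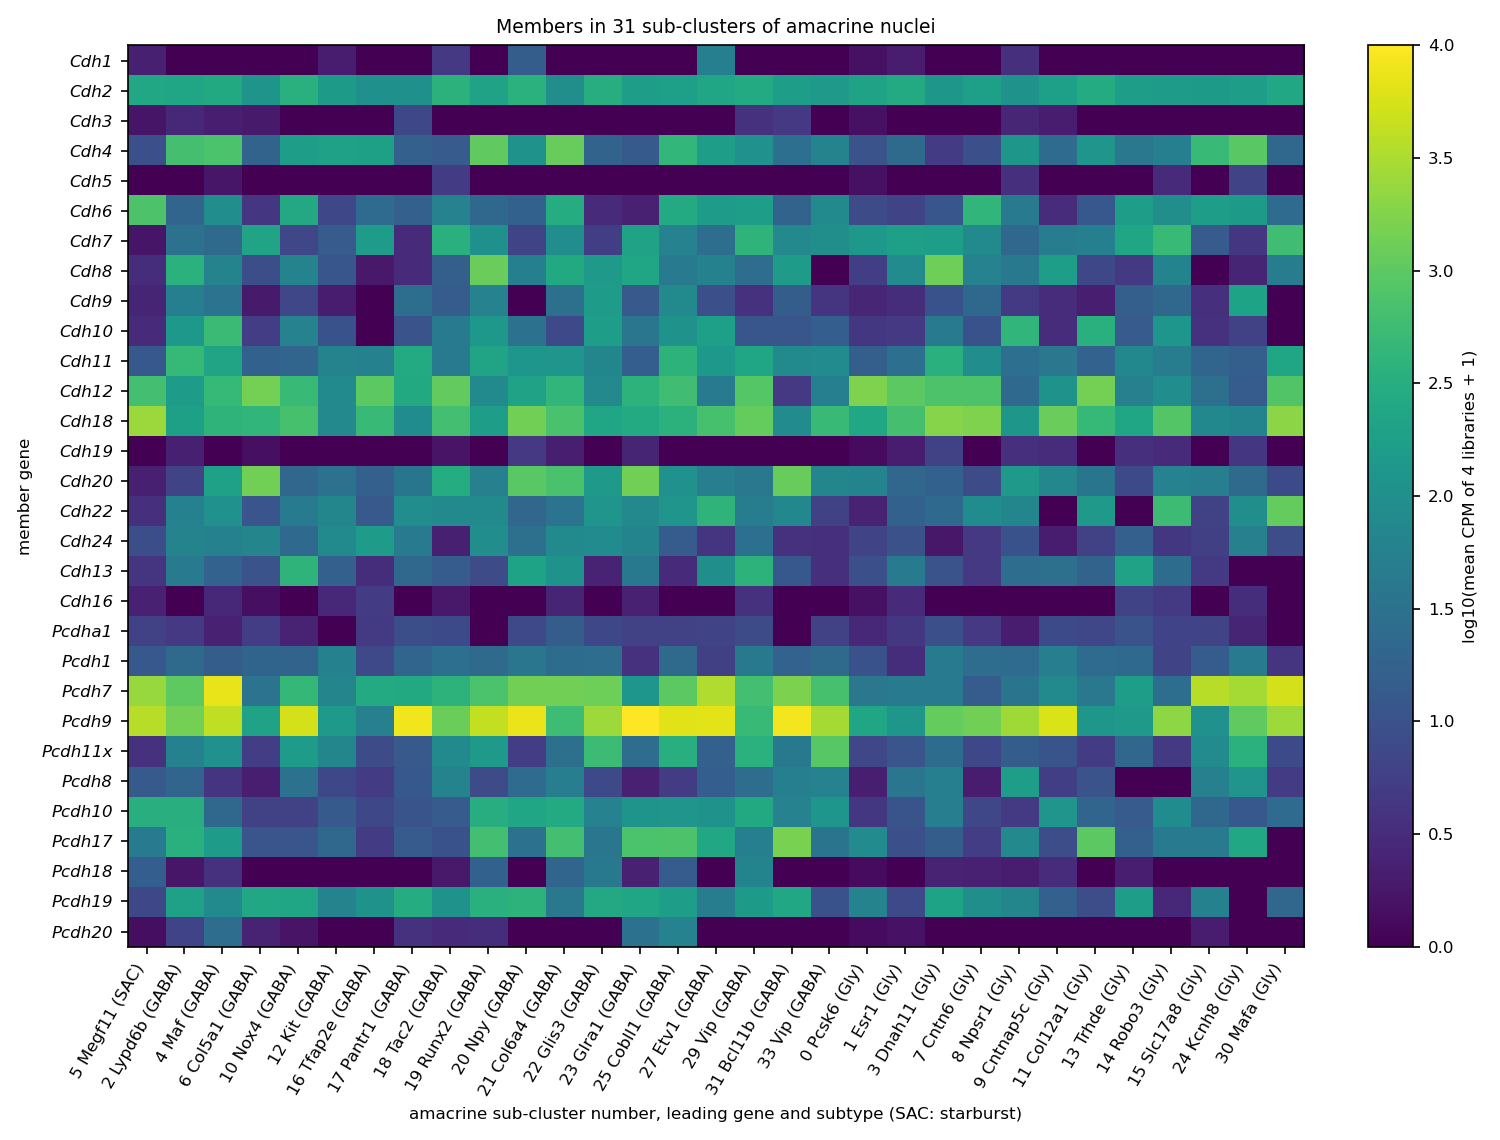
Levels of the members in 31 of the 32 tested amacrine sub-clusters, as log10 of the mean CPM of 4 libraries plus 1; colours end at 4, and SAC stands for starburst, GABA for GABAergic and Gly for glycinergic cells. Most columns combine a few high members with many low ones, such as Cdh22 and Cdh7 in the sub-cluster led by Mafa.

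The next 7 members had their highest mean levels in other amacrine sub-clusters, but each was called higher in several of the 32, from 10 for Cdh20 and 11 for Pcdh17 to 17 for Cdh12 and 18 for Cdh22. Cdh8 had 1185 and 1175 CPM at 5 months and 1426 and 1408 CPM at 2.5 months in the glycinergic sub-cluster led by Dnah11 (log2 fold change 5.45, adjusted p = 1.35e-64, SE 0.16), and it was also above 1000 CPM in that led by Runx2. Cdh22 was at 1142 ± 202 CPM and Cdh7 at 603 ± 82.4 CPM in the glycinergic sub-cluster led by Mafa (log2 fold changes 4.99 and 3.62, SE 0.15 and 0.21, adjusted p at most 2.66e-34). Each of these was higher in all 4 libraries than the mean of the other sub-clusters. Cdh20 was at 1387 ± 237 CPM in the sub-cluster led by Col5a1, and Pcdh17 was at 1593 ± 168 CPM in that led by Bcl11b. For Cdh20 the Col5a1 sub-cluster was the highest in only 1 of the 4 libraries. Cdh4 was at 1178 ± 307 CPM in that led by Col6a4, and Cdh12 at 1684 ± 129 CPM in that led by Pcsk6. The sets of members above 500 CPM took 25 different forms in the 32 sub-clusters, and at a limit of 200 CPM all 32 differed. As in bipolar cells, sets of other genes were not counted beside them.

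Ganglion cells marked by the factors Eomes, Tbr1 or Foxp2 differed from the other ganglion cells in 11 to 15 of the members tested. In Eomes cells, which include the light-sensing melanopsin cells, 6 of 21 members tested were called higher and 9 lower than in the other ganglion cells, where 7.35% of all genes were higher and 6.05% lower. Cdh18 had 2259 and 1910 CPM at 5 months and 2473 and 2662 CPM at 2.5 months in Eomes cells, against 836 and 788 CPM at 5 months and 699.8 and 896 CPM at 2.5 months in the others (log2 fold change 1.60, adjusted p = 1.76e-13, SE 0.09). Cdh4 had 51.5 and 43.8 CPM at 5 months and 49 and 56 CPM at 2.5 months in Eomes cells, against 589.5 and 495 CPM at 5 months and 416 and 600.4 CPM at 2.5 months (log2 fold change -3.35, adjusted p = 6.43e-17, SE 0.12). Pcdh9 was at 12778 ± 2435 CPM in Eomes cells and 4524 ± 672 CPM in the others, and Pcdh10 at 12 ± 8.40 and 195 ± 20.9 CPM (log2 fold changes 1.57 and -4.07, SE 0.07 and 0.20, adjusted p at most 4.25e-14). The groups did not overlap for any of the 4.

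In Tbr1 cells 5 of 21 members tested were called higher and 6 lower, where 2.69% of all genes were higher and 3.43% lower. Cdh8 had 154 and 158 CPM at 5 months and 334 and 231 CPM at 2.5 months in Tbr1 cells, against 78.4 and 64.2 CPM at 5 months and 66.9 and 94.8 CPM at 2.5 months in the others (log2 fold change 1.45, adjusted p = 5.71e-08, SE 0.14). Cdh6 was at 5.38 ± 3.70 CPM in Tbr1 cells and 130 ± 31.4 CPM in the others (log2 fold change -4.25, adjusted p = 1.12e-11, SE 0.25). In Foxp2 cells 6 of 22 were called higher and 7 lower, where 3.79% of all genes were higher and 4.62% lower. Pcdh10 had 278 and 298 CPM at 5 months and 422 and 385 CPM at 2.5 months in Foxp2 cells, against 140 and 132 CPM at 5 months and 145 and 155 CPM at 2.5 months (log2 fold change 1.21, adjusted p = 5.61e-11, SE 0.10). Pcdh20, low everywhere, was at 21.8 ± 7.91 CPM in Foxp2 cells and 3.25 ± 1.85 CPM in the others (log2 fold change 2.73, adjusted p = 5.35e-06, SE 0.40). Cdh6 was at 7.78 ± 3.47 CPM in Foxp2 cells and 129 ± 34.3 CPM in the others, and Pcdh9 at 1209 ± 244 and 6401 ± 1183 CPM (log2 fold changes -3.75 and -2.40, SE 0.23 and 0.09, adjusted p at most 6.44e-14).

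Only 5 of 33 ganglion sub-clusters had enough nuclei in each library to be tested. With 17 members and 4289 genes in the fit, 32 of 85 member tests were called higher and 27 lower, against 8.36% and 6.22% over all genes. The limit set by the filter is the same as for the bipolar sub-clusters. Cdh20 had 543 and 412 CPM at 5 months and 486 and 532 CPM at 2.5 months in the Tbr1 sub-cluster led by Plpp4, against a mean of 5.17 CPM in the other 4 (log2 fold change 6.75, adjusted p = 2.83e-31, SE 0.24). The same sub-cluster had Pcdh11x at 791 ± 143 CPM (log2 fold change 5.65, adjusted p = 9.98e-31, SE 0.21). Pcdh7 was at 4474 ± 1071 CPM in the sub-cluster led by Foxp2 and Tctex1d1 and at 29.5 ± 29.2 CPM in that led by Elfn1, with log2 fold changes of 3.29 and -5.40 (SE 0.10 and 0.21, adjusted p at most 2.01e-29).

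Fibroblasts formed groups marked by Myoc and by Rspo2. Of 11 members tested, 2 were called higher and 2 lower in Myoc than in Rspo2 fibroblasts, where 8.36% of all genes were higher and 7.07% lower. Pcdh7 had 379 and 219 CPM at 5 months and 481 and 497 CPM at 2.5 months in Myoc fibroblasts, against 2212 and 1234 CPM at 5 months and 2546 and 2324 CPM at 2.5 months in Rspo2 fibroblasts. The groups did not overlap, and the second 5-month library was the lowest in both (log2 fold change -2.43, adjusted p = 5.72e-09, SE 0.15). Pcdh19 was at 55 ± 20.5 CPM in Myoc and 168 ± 54.7 CPM in Rspo2 fibroblasts (log2 fold change -1.62, adjusted p = 0.000347, SE 0.27), and Cdh13 at 66.1 ± 20.8 CPM in Myoc and 21.6 ± 19.5 CPM in Rspo2 fibroblasts (adjusted p = 0.0103, log2 fold change 1.65, SE 0.42).

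The partners of the members also differed between the classes, though some counts lay near the share of all genes. Of 15 catenins and junction adaptors, 14 were tested, and in Müller glia 10 were called higher and 2 lower, where 29.6% of all genes were higher and 24.1% lower. Fibroblasts had 8 higher and 5 lower (27.9% and 23.1% of all genes), and ganglion cells 7 and 2 (35.7% and 27.3%). Pigment epithelium had 4 and 4 (17.7% and 14.6%), and melanocytes 6 and 4 (17.5% and 16.7%). Amacrine cells had 5 and 8 (33.4% and 24.0%), and bipolar cells 4 and 6 (26.9% and 20.8%). Horizontal cells had 4 and 7 (17.7% and 18.3%), rods 3 and 8 (31.3% and 31.9%), and cones 3 and 8 (32.8% and 27.4%). Ctnna2, the neuronal alpha-catenin, was at 5496 ± 870 CPM in horizontal cells, with a log2 fold change of 5.06 (SE 0.12, adjusted p = 2.15e-36). Of 23 other genes of the cadherin superfamily 14 were tested, and 10 were called higher and 2 lower in amacrine cells, against 33.4% and 24.0% of all genes, and 9 higher and 2 lower in ganglion cells, against 35.7% and 27.3%. The counts were 3 higher and 8 lower in rods, 3 and 7 in cones, 3 and 6 in horizontal cells, 7 and 4 in bipolar cells, 8 and 5 in Müller glia, 0 and 3 in pigment epithelium, 1 and 4 in melanocytes and 6 and 6 in fibroblasts. The shares of all genes in these classes are those given above beside the catenins. Cdhr1, a cadherin of the photoreceptor outer segment, was at 334 ± 43.2 CPM in cones and 243 ± 9.94 CPM in rods (log2 fold changes 3.08 and 2.41, SE 0.09 each, adjusted p at most 9.38e-28). Fat3, an atypical cadherin that shapes amacrine dendrites in mice, was at 981 ± 112 CPM in amacrine and 1052 ± 134 CPM in ganglion cells (log2 fold changes 3.70 and 3.97, SE 0.09 each).

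Between 5 and 2.5 months, with 2 libraries per age, 1 member passed the test in 1 class. The file headers name Cell Ranger 4.0.0 at 5 months and 7.1.0 at 2.5 months, and an effect of age cannot be told apart from one of the software version. The genotype label (wild type at 2.5 months, none at 5 months) coincides with age as well. So does the removal of doublets, in effect at 5 months alone. The p-values measure the spread between these libraries, each from a separate donor per the labels. Over the 10 classes edgeR's test called Pcdh7 alone, as lower in melanocytes at 5 months, where 0.411% of all genes were lower and 0.112% higher. In the other classes few genes of any kind were called. The shares of all genes called higher and lower were 0.0244% and 0.0244% in rods, 0.104% and 0.0348% in cones and 0.0415% and 0.0554% in horizontal cells. They were 0.0532% and 0.0266% in bipolar cells, 0.0131% and 0.00655% in amacrine cells and 0.0301% and 0.0226% in ganglion cells. Müller glia had 0.0636% higher and 0.0318% lower, pigment epithelium had 0.0317% and 0.0158%, and fibroblasts had 0.00% and 0.00854%. Unadjusted p-values under 0.05 were found for 6 of 20 members in fibroblasts, where 9.66% of all genes tested had one, and for 4 of 26 in amacrine cells, where 7.98% did. The members were 1 of 22 in rods (6.58% of all genes), 2 of 15 in cones (5.44%), 1 of 9 in horizontal cells (7.04%) and 1 of 20 in bipolar cells (6.5%). They were 1 of 25 in ganglion cells (6.3%), 1 of 20 in Müller glia (6.52%), 2 of 14 in pigment epithelium (6.19%) and 2 of 8 in melanocytes (6.67%).

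Pcdh7 in melanocytes had 21.7 and 30.3 CPM at 5 months and 266 and 80.8 CPM at 2.5 months, from 3 and 10 UMIs at 5 months and 84 and 16 UMIs at 2.5 months. The ages did not overlap, and the first 2.5-month library was far the highest. The log2 fold change was -2.62 (SE 0.53, adjusted p = 0.0308). Without the first 2.5-month library it was -1.45 with an adjusted p of 0.99, and with doublets kept it was -0.57. The summed level of 8 fibroblast markers in melanocytes was 86.9 and 234 CPM at 5 months and 564 and 197 CPM at 2.5 months, all 8 being detected, so that the library highest in Pcdh7 was also the highest in these markers, and their part in the result was not tested.

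In fibroblasts 19 of 20 members tested had a negative log2 fold change at 5 months, with a median of -0.68 beside 0.02 over all genes, and 0 were called. Cdh12 had 22.7 and 31.2 CPM in the 5-month libraries, against 75.6 and 67.0 CPM in the 2.5-month libraries (adjusted p = 0.195, log2 fold change -1.32, SE 0.28). Pcdh11x had 34.8 and 31.9 CPM in the 5-month libraries, against 84.0 and 92.6 CPM in the 2.5-month libraries (adjusted p = 0.152, log2 fold change -1.37, SE 0.27). The ages did not overlap for either gene. The summed level of 13 bipolar markers in fibroblasts was 695 and 615 CPM at 5 months and 1243 and 1001 CPM at 2.5 months, with all 13 detected, and that of 10 amacrine markers was 879 and 738 CPM at 5 months and 650.2 and 858 CPM at 2.5 months. The bipolar marker sums moved with the members and the amacrine sums overlapped between the ages, and their part in the fibroblast medians was not tested. In rods 18 of 22 members had a positive log2 fold change with a median of 0.28 beside 0.02 over all genes, in amacrine cells 8 of 26 were positive with a median of -0.16, and 0 were called in either.

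Other members with a large fold change between the ages had few UMIs and were not called. Pcdh11x in pigment epithelium had 0 and 2 UMIs at 5 months and 29 and 14 UMIs at 2.5 months, with a lowest adjusted p of 0.128 among the members of that class, and no fold is given at so few UMIs. Cdh10 in horizontal cells had 16 and 11 UMIs at 5 months and 14 and 23 UMIs at 2.5 months, or 19.2 and 11.8 CPM at 5 months and 67.5 and 52 CPM at 2.5 months (log2 fold change -1.72, adjusted p = 0.25, SE 0.43). The ages did not overlap in CPM for either. Cdh16 was on the higher side at 5 months in rods, cones and bipolar cells, with log2 fold changes of 1.02, 1.17 and 1.23 (SE 0.33, 0.39 and 0.53, adjusted p at least 0.707).

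**Figure D5:**
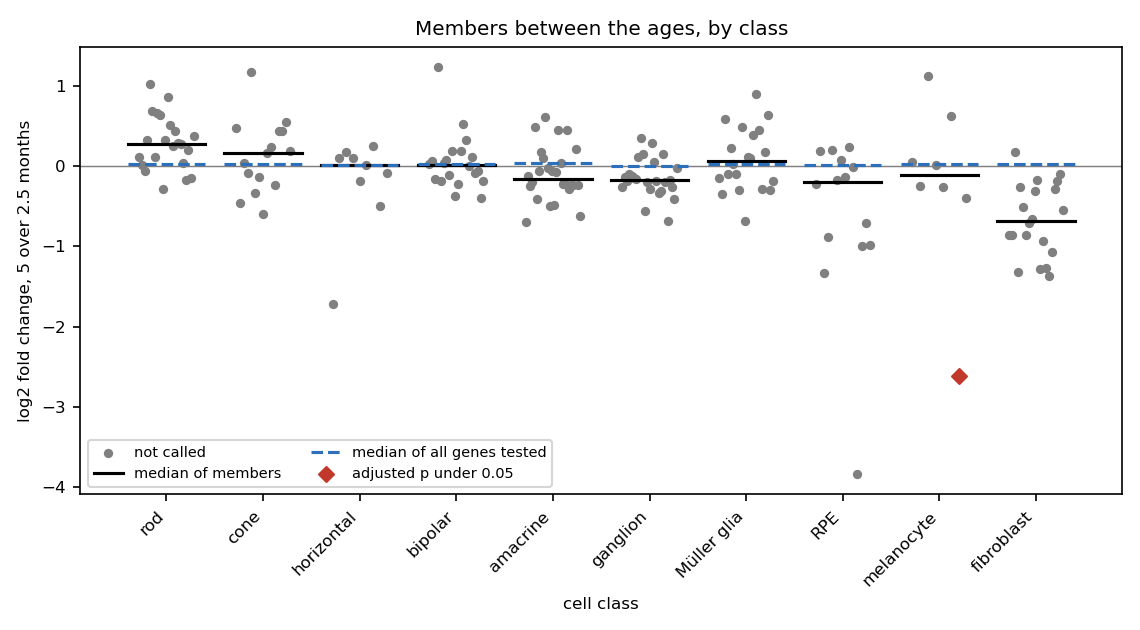
Log2 fold change of each tested member at 5 over 2.5 months in each class, with 1 point per member, a black line at the median of the members and a dashed line at the median of all genes tested. The points of fibroblasts lie almost all below 0, and Pcdh7 in melanocytes at -2.62 is the only called point.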

How the data were processed

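Nuclear RNA of 4 mouse retina libraries was analysed from the count tables that the authors deposited: whole-number UMI counts per gene and barcode on build mm10 per the submitters' processing notes, counted with Cell Ranger 4.0.0 at 5 months and 7.1.0 at 2.5 months per the file headers. The sources used here do not say whether intron reads were counted, and a difference between the versions enters every age comparison. A barcode was kept at 300 or more genes and a mitochondrial share of no more than 5% of UMIs. Doublets were called with scrublet and removed, and 2000 variable genes without any Cdh or Pcdh gene, 30 principal components and 15 neighbours gave 72 Leiden clusters (scanpy 1.11.5, leidenalg 0.10.2). Classes were named from at least 3 raised markers of a fixed list, and 2730 nuclei stayed unnamed. Inner classes were clustered again with 1500 variable genes, and 15 sub-clusters with many called doublets or rod markers (487 nuclei) were set aside. Cut-offs for subtypes and the final cluster names were set after leading genes were seen.

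Counts were summed per class, subtype or sub-cluster and library. Class, subtype and sub-cluster fits (edgeR 4.0.16 in R 4.3.3, TMM, filterByExpr, quasi-likelihood test, 2-sided) had library as a block; age fits had age alone. Adjusted p-values are over all genes tested. The class fit, tested on simulated data, recovered 97.8% of genes changed by a log2 fold change of 1 in amacrine cells. The age fit recovered 79.6%, also in amacrine cells. The simulation changed no low genes, and its spread was set by hand rather than taken from the data. It therefore does not describe low genes or the smaller classes. Class sums ranged from 138040 UMIs in melanocytes to 8605575 in amacrine cells; small classes carry more counting error. Named in each comparison were up to 4 members per direction that were called and moved alike in all 4 libraries, every member called between the ages, and a fixed list of members whatever they did. The members and lists were chosen with earlier results of these data known, the clustered genes could not be described, 1 amacrine sub-cluster entered the counts but is not reported here singly, and gene positions are from GENCODE M21 (GRCm38, the assembly of mm10).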

Additional observations from a re-analysis of the deposited data

Results flagged for a closer look

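Pcdh7 in ganglion cells of the second 5-month library had 1412 CPM, against 2031 CPM in the other 5-month library and 1998 and 1939 CPM in the 2.5-month libraries. Its distance to the nearest other library was 0.851 of the range of all 4. It was 1 of 30 groups looked at, 1 for each member in its highest class, and chance alone marks about 1 in 20 such groups.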

How the results depend on the processing

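For 428 values of single members, 3352 of 3512 values under the alternatives that were run for each kept their direction and their side of the threshold, 160 kept the direction but lost the call, and 0 reversed. Scaling with RLE in place of TMM moved no count of members by more than 1.5 times. Thinning of class sums moved 13 counts by more than 1.5 times and left 27 within it, over the class map and the age fits together. For the class map all sums were thinned to 138040 UMIs, for the age fits to the smallest library of each class. Of the age counts only that of members lower in melanocytes moved, and the others were 0 before and after. All other moved counts were of the class map. In the thinned class map rods had 0 members higher and 11 lower, cones 3 and 7, and fibroblasts 7 and 7. The members lower were then 6 in horizontal cells, 2 in bipolar cells, 1 in amacrine cells, 0 in ganglion cells, 5 in Müller glia and 2 in pigment epithelium. With doublets kept 8 members were lower in horizontal cells, and with one doublet threshold for all libraries 2 were lower in amacrine cells and 11 in pigment epithelium; the cause was not tested. Without the low count filter 7 members were higher in Myoc fibroblasts, and between the ages 1 was higher in rods and 1 lower in horizontal cells, 2 lower in pigment epithelium and 2 lower in fibroblasts. Leaving out 1 library at a time gave 3 to 6 members lower in bipolar cells, 2 to 4 in amacrine cells and 1 to 3 in ganglion cells, each lowest without the second 2.5-month library, and 3 to 6 in pigment epithelium, lowest without the first 2.5-month library. Short-wave cones had 2 to 5 lower, with 2 when the second 2.5-month library was out, and Myoc fibroblasts had 1 to 3 higher.

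The calls between the ages rest on single libraries and on small sums. Leaving out 1 library gave 0 to 1 members lower at 5 months in horizontal cells, in ganglion cells and in pigment epithelium, and 0 to 2 in melanocytes. The call in horizontal and ganglion cells appeared without the first 5-month library. Pcdh7 in melanocytes was the call lost without the first 2.5-month library, and 0 members were called there with doublets kept, with one doublet threshold (log2 fold change -1.62), with DESeq2 (-2.63), with the replicate block (-2.27) and with thinned class sums (-2.96). Over all alternatives its adjusted p reached 0.99. After removal of the dependence on gene span, 87 member and class pairs had a positive log2 fold change, against 76 before.

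Replicate numbers did not pair the libraries, since same-numbered libraries had correlations of their deviations between -0.104 and 0.0345 over the 10 classes. The age fit with the replicate block called 2 members lower in pigment epithelium and 0 in melanocytes. Fibroblasts had the correlation of -0.104, and a crossed replicate block, chosen after seeing the data, called 2 members lower there. In the subtype fits, where library is the block, leaving it out (no replicate block) gave 1 member higher in rod bipolar cells, 4 lower in ON cells, 2 lower in short-wave cones, 3 higher in glycinergic cells, 2 higher in Foxp2 cells and 0 higher in Myoc fibroblasts.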

Other observations

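Clusters that received no class name had member levels of their own. A cluster of 475 nuclei carried melanocyte markers but was led by Tbx20 and Matn3, and it had 10 UMIs of Cdh19 and 1 UMI of Cdh1 in all 4 libraries together. The named melanocytes, 288 nuclei, had 1258 UMIs of Cdh19 and 238 UMIs of Cdh1. The Tbx20 cluster had Pcdh7 at 1528 and 1304 CPM at 5 months and 1536 and 1818 CPM at 2.5 months and Cdh6 at 196 ± 10.9 CPM (SD, n = 4 libraries). A cluster of 775 nuclei with melanocyte and smooth muscle markers had Cdh6 at 154 and 119 CPM at 5 months and 158 and 171 CPM at 2.5 months, with 2 UMIs of Cdh19 and 1 of Cdh1. A cluster of 265 nuclei with Müller markers that was led by Slc26a4 and Optc had Cdh20 at 747 ± 101 CPM and Cdh2 at 522 ± 78.7 CPM. It also had Pcdh7 at 2049 and 1635 CPM at 5 months and 1942 and 2527 CPM at 2.5 months. These clusters entered no comparison, and the differences were not tested.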
